A study of Mus musculus with 16 samples.

Results

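The glucocorticoid receptor and a set of genes that it is known to act on were followed in mouse liver across 2 diets and 2 feeding states. The 8 genes were taken by name: Nr3c1, which encodes the receptor, Hsd11b1, which encodes the enzyme that supplies its hormone inside the cell, and the target genes Fkbp5, Tsc22d3, Sgk1, Klf9, Mt1 and Mt2. All 8 were among the 46078 genes of the count table and among the 15075 genes with enough counts to be tested, so no member was lost to the filter on low counts. RNA-seq of poly(A) RNA was made from 16 livers. The mice were wild type, with the strain spelled C56B6/J in the labels, and male according to the study's methods, and they were put on their diets as young adults. CD fed mice received a control diet (CD) for 16 weeks and ate freely, and CD fast mice received the same diet and were then fasted for 16 h. HFD fed mice received a high-fat diet (HFD, 60% of calories from fat, used to induce obesity) for 16 weeks and ate freely, and HFD fast mice received it and were fasted for 16 h. Each group holds 4 numbered libraries. The labels do not say in so many words that each came from a separate animal, and p-values measure the spread between these libraries.

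Glucocorticoids (corticosterone in the mouse) are adrenal steroid hormones whose secretion follows the day and rises with fasting and stress. In the absence of hormone the receptor is held in the cytoplasm by heat shock proteins of the HSP90 and HSP70 families and their co-chaperones, and on binding hormone it moves into the nucleus, binds DNA and raises or lowers transcription of its targets. In liver it is best known for its part in gluconeogenesis, amino acid breakdown and lipid handling during fasting, and for its restraint of inflammation. Cells adjust the signal in several ways: by reactivating inert hormone (Hsd11b1), by the amount of receptor, and by targets that feed back on the receptor (Fkbp5). The comparisons ask how fasting and diet changed the RNA of these genes, and whether the response to fasting differed between diets.

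Libraries held 41364448 to 57583153 counts. Levels are given as CPM (counts relative to the library's total), in which library totals carry TMM factors (trimmed mean of M-values) of 0.929 to 1.13, and 3 counts, taken as the detection floor, were 0.0536 to 0.0767 CPM. The members had at least 72 counts in every library, far above that floor. Changes are log2 ratios with their standard error (SE), from the quasi-likelihood test of edgeR with Benjamini-Hochberg adjustment over the 15075 genes, and a gene was called changed at an adjusted p under 0.05. Scaling by the total count in place of TMM shifted the median of all genes by 0.16 on the log2 scale for HFD in fasted mice, and by at most 0.09 in size for the other contrasts. Livers hold several cell types, and in such bulk samples fewer cells of a type and less RNA per cell cannot be told apart.

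In CD mice, fasting raised 3 of the 8 genes, the metallothionein genes Mt1 and Mt2 and the kinase gene Sgk1, beside 25.2% of all tested genes called in either direction and 13.7% called higher. In HFD mice, fasting changed 1 of the 8, Fkbp5, which fell, beside 8.86% of all genes called and 4.07% called lower. The HFD changed 1 of the 8 in fed mice, again Fkbp5, which rose, beside 7.50% of all genes called and 3.28% called higher. In fasted mice the HFD changed 0 of the 8 by edgeR (7.70% of all genes called). At an unadjusted p under 0.05 there were 2 of the 8, beside 25.9% of all genes. DESeq2 called 1, Nr3c1. The libraries of the groups compared did not overlap for 4 of the 8 genes with fasting in CD (25.4% of all genes), and for 1 of the 8 in each of the other contrasts: fasting in HFD (16.7%), HFD in fed mice (15.7%) and HFD in fasted mice (14.0%). The median change of the 8 genes was 0.28 for fasting in CD, -0.21 for fasting in HFD, 0.29 for HFD in fed mice and -0.19 for HFD in fasted mice, and the median over all genes lay between -0.01 and 0.01 in each. These counts lie near the background shares, so the members are described gene by gene.

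**Figure D1:**
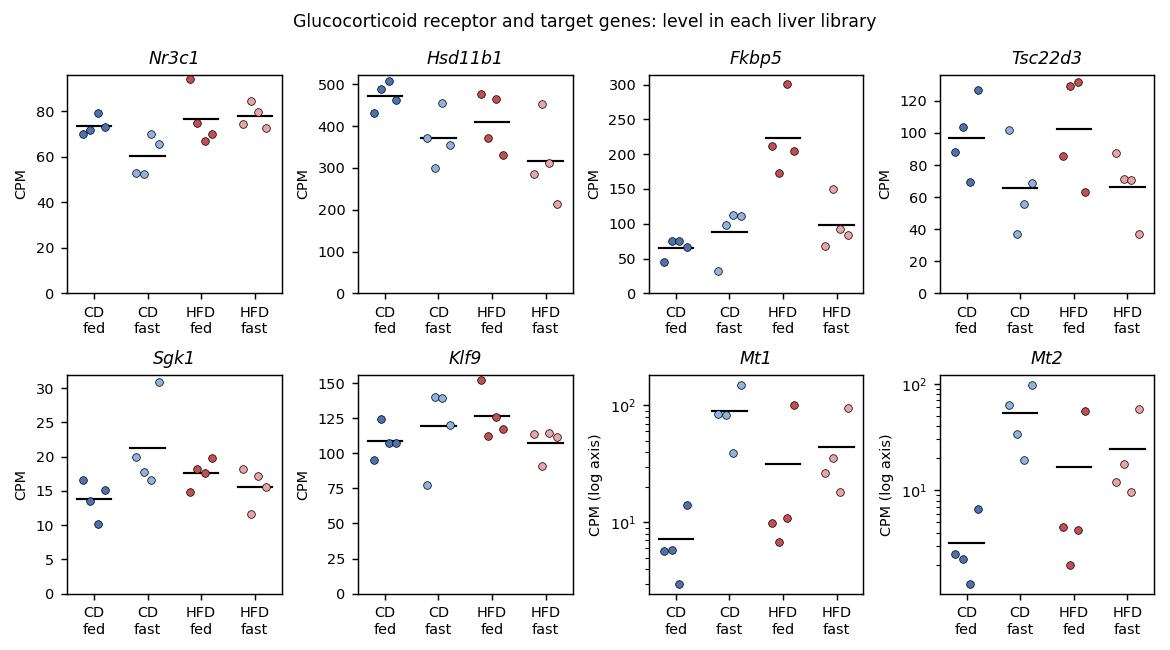
Level of each of the 8 genes in every library. Each point is 1 library (CPM), horizontal bars are group means (n = 4), and the axes of Mt1 and Mt2 are logarithmic. Fkbp5 is highest in the 4 HFD fed libraries (173 to 301 CPM), and Mt1 and Mt2 are low in CD fed and high in CD fast livers.

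Nr3c1 (ENSMUSG00000024431, GRCm38 chromosome 18, 39410545 to 39519421, minus strand) encodes the glucocorticoid receptor, a nuclear receptor that acts as a ligand-dependent transcription factor. Its level was 69.9, 71.7, 79.2 and 72.8 CPM in CD fed livers and 52.9, 52.4, 69.8 and 65.8 CPM in CD fast livers (libraries 1 to 4). It was 94.0, 74.7, 67.0 and 70.0 CPM in HFD fed livers and 74.3, 84.6, 79.7 and 72.7 CPM in HFD fast livers. CD fast was the lowest group, and its highest library lay just under the lowest CD fed library and under every HFD fast library. The other neighbours in the order of group means, HFD fast (77.8 ± 5.43 CPM), HFD fed (76.4 ± 12.1) and CD fed (73.4 ± 4.07; CD fast 60.2 ± 8.85; SD, n = 4), overlapped. Neither difference was called: fasting in CD gave -0.29 on the log2 scale (SE 0.11, edgeR adjusted p = 0.0739), and HFD in fasted mice gave 0.37 (SE 0.11, adjusted p = 0.0551). Both depend on the method. The first was called with total count scaling (-0.33, adjusted p = 0.0314), and for the second DESeq2 gave an adjusted p of 0.0267, upper quartile scaling 0.0344, total count scaling 0.0084 and a stricter count filter 0.0409, all in the same direction. With total count scaling the second difference was 0.53, but that scaling also shifted the median of all genes by 0.16 in this contrast. The second was also called without CD fast library 3 (0.45, adjusted p = 0.0355) or without HFD fed library 1 (0.37, adjusted p = 0.0329), and the fasting difference in CD was called without the same libraries (-0.37, adjusted p = 0.0309, and -0.29, adjusted p = 0.0399). Each difference was called in only these 2 of the 16 fits that left out 1 library. For fasting in CD the adjusted p rose to 0.196 without CD fast library 2. For HFD in fasted mice it rose to 0.14 without CD fast library 1. Without the 4 libraries numbered 4 the adjusted p was 0.108 and 0.0971 in this order. With fasting in HFD mice and with HFD in fed mice the receptor's RNA was within 0.26 and 0.30 of no change on the log2 scale at the outer ends of the 95% confidence intervals (-0.21 to 0.26 and -0.18 to 0.30).

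Its closest relative, Nr3c2, encodes the mineralocorticoid receptor, which also binds corticosterone. Nr3c2 was 6.31 to 9.40 CPM in CD fed livers and 11.2 to 18.4 CPM in CD fast livers, without overlap, and rose with fasting in CD by 0.95 (SE 0.20, adjusted p = 0.00276). With fasting in CD the 2 receptor genes thus differed in opposite directions, and only the rise of Nr3c2 passed the test.

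Hsd11b1 (ENSMUSG00000016194, chromosome 1, 193221634 to 193264075, minus strand) encodes 11-beta-hydroxysteroid dehydrogenase type 1, which regenerates active corticosterone from its inert 11-keto form within the hepatocyte. CD fed livers held 432, 488, 508 and 462 CPM and CD fast livers 373, 300.4, 455 and 354 CPM. HFD fed livers held 476, 372, 463 and 331 CPM and HFD fast livers 286, 454, 311 and 213 CPM. The order of group means was CD fed (472 ± 32.9 CPM, SD, n = 4), HFD fed (411 ± 70.4), CD fast (371 ± 64.1) and HFD fast (316 ± 101), and each neighbour overlapped the next. No difference was called. Fasting gave -0.35 in CD (SE 0.19, adjusted p = 0.191) and -0.38 in HFD (SE 0.19, adjusted p = 0.223), with 95% confidence intervals of -0.75 to 0.05 and -0.78 to 0.02, so falls of up to these sizes cannot be set aside. The value in HFD moved with single libraries: without HFD fast library 2 it was -0.62 and called (adjusted p = 0.0345), and without HFD fast library 4 it was -0.23 (adjusted p = 0.458). On the annotation the span of Hsd11b1 overlaps Lamb3, a laminin subunit gene on the opposite strand, with 0 shared exon bases. Lamb3 was 4.25 to 7.12 CPM in CD fed and 46.9 to 195 CPM in CD fast livers. It was 6.16 to 13.8 CPM in HFD fed and 30.7 to 104 CPM in HFD fast livers, so it was higher in fasted livers of both diets, without overlap.

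Among 7 further tested genes of hormone handling, fasting in CD changed 1 (Nr3c2, above, beside 25.2% of all genes). Fasting in HFD changed 0 (8.86%), with 2 at an unadjusted p under 0.05 (25.6% of all genes). HFD in fed mice changed 0 (7.50%), again with 2 before adjustment (22.9%). HFD in fasted mice changed 1 (7.70%). That gene was Abcb1a, a P-glycoprotein that exports steroids from cells, at 2.58 ± 0.915 CPM in CD fast and 6.12 ± 2.12 CPM in HFD fast livers (SD, n = 4). It rose by 1.24 (SE 0.31, adjusted p = 0.0254). H6pd, which supplies the cofactor that lets Hsd11b1 work in the reducing direction, ranged between group means of 536 and 642 CPM and was not called in any contrast. Hsd11b2, the enzyme that inactivates the hormone, was below the floor in every group mean (at most 0.00494 CPM) and was not tested.

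Fkbp5 (ENSMUSG00000024222, chromosome 17, 28399094 to 28517527, minus strand) encodes FKBP51, a co-chaperone of HSP90 that lowers the receptor's affinity for hormone and is itself induced by the receptor, which closes a short feedback loop. It was 45.3, 75.7, 74.9 and 67.1 CPM in CD fed livers and 211, 173, 301 and 205 CPM in HFD fed livers. The lowest HFD fed library was thus above the highest CD fed library. It was 32.7, 97.9, 112 and 112 CPM in CD fast livers and 67.6, 149.9, 92.0 and 84.4 CPM in HFD fast livers. In fed mice the HFD raised Fkbp5 3.39-fold, by 1.76 on the log2 scale (SE 0.33, adjusted p = 0.00593), a call kept in all 16 fits that left out 1 library (1.58 to 1.86) and under all 11 other alternatives, among them DESeq2 and limma-voom. Fasting lowered it in HFD mice 2.26-fold, by -1.18 (SE 0.33, adjusted p = 0.0378), again with no overlap. This second call is less firm. The adjusted p was 0.0507 with limma-voom, and without HFD fed library 1 or 3 or HFD fast library 1, 3 or 4 it ran from 0.0797 to 0.106, with changes still negative. In CD mice fasting gave 0.43 (SE 0.33, adjusted p = 0.356), with CD fast library 1 below every CD fed library and its libraries 2, 3 and 4 above them all. In fasted mice the HFD gave 0.15 (95% confidence interval -0.54 to 0.84, adjusted p = 0.808), so HFD fed stood above the other groups, which overlapped one another.

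The interaction asks whether fasting changed a gene differently in the HFD than in the CD. For Fkbp5 it was -1.61 on the log2 scale (SE 0.46, adjusted p = 0.0747), and it was not called, beside 2.59% of all genes called and 1.36% with a negative interaction. DESeq2 called it (adjusted p = 0.0115), as did edgeR without CD fast library 1 (-1.88, adjusted p = 0.0127) or without HFD fast library 2 (-1.89, adjusted p = 0.0433). By edgeR the interaction called 0 of the 8 members. At an unadjusted p under 0.05 there were 4 (Fkbp5, Sgk1, Mt1 and Mt2), beside 20.2% of all genes. DESeq2 called 1, and a fit with the replicate number as a block called 3 (Fkbp5, Mt1 and Mt2).

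Fam107a, a small actin-associated protein gene and a known glucocorticoid target, was likewise highest in HFD fed livers, at a far lower level. It was 0.182, 0.631, 0.240 and 0.322 CPM in CD fed livers and 2.01, 0.963, 3.48 and 1.76 CPM in HFD fed livers. It was 0.131 to 0.384 CPM in CD fast and 0.126 to 0.521 CPM in HFD fast livers, so the HFD fed libraries were above all others. The HFD raised it in fed mice by 2.57 (SE 0.47, adjusted p = 0.0046) and fasting lowered it in HFD mice by -2.57 (SE 0.47, adjusted p = 0.00516), and both calls held in all 16 fits that left out 1 library. At such levels the fold changes rest on few counts.

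FKBP51 works within a set of chaperones, and of the 16 such genes tested, fasting changed 2 in CD and 3 in HFD (25.2% and 8.86% of all genes). The HFD changed 3 in fed and 1 in fasted mice (7.50% and 7.70% of all genes). With a library left out these counts ran from 2 to 4, 1 to 4, 0 to 5 and 0 to 3. Hspa8, the constitutive HSP70 that loads the receptor, rose with fasting in CD by 0.56 (SE 0.14, adjusted p = 0.0112) and in HFD by 0.71 (SE 0.15, adjusted p = 0.00888), and fell with HFD in fed mice, by -0.64 (SE 0.15, adjusted p = 0.0162). CD fed livers averaged 1209 CPM, CD fast livers 1782 CPM, HFD fed livers 778 CPM and HFD fast livers 1274 CPM. Hsp90ab1, the HSP90 that holds the receptor ready for hormone, took the same course on a smaller scale: 0.37 and 0.34 with fasting in CD and HFD, and -0.36 and -0.39 with HFD in fed and fasted mice (adjusted p from 0.0135 to 0.0416). Hspa1b, a stress-inducible HSP70, fell with HFD in fed mice by -1.82 (SE 0.45, adjusted p = 0.024), and Bag1, a co-chaperone that limits receptor activity, fell with fasting in HFD by -0.29 (SE 0.09, adjusted p = 0.0433). In HFD fed livers, then, Fkbp5 was high while Hspa8 and Hsp90ab1 were at their lowest group means. The call of Hspa8 in that contrast was lost without HFD fed library 1 (adjusted p = 0.0511), and that of Hsp90ab1 was kept by 9 of the 16 fits with a library left out. Of the calls with fasting in HFD, that of Hsp90ab1 was kept by 5 and that of Bag1 by 4.

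Tsc22d3 (ENSMUSG00000031431, chromosome X, 140539528 to 140600659, minus strand) encodes GILZ, a leucine zipper protein that is a classic target of the receptor and restrains inflammatory signalling. CD fed livers held 88.2, 104, 69.5 and 127 CPM and CD fast livers 102, 37.1, 55.6 and 69.0 CPM. HFD fed livers held 85.5, 129, 132 and 62.9 CPM and HFD fast livers 87.2, 71.3, 70.4 and 37.0 CPM. All 4 groups overlapped. Fasting gave -0.56 in CD (SE 0.32, adjusted p = 0.209) and -0.62 in HFD (SE 0.32, adjusted p = 0.231), and the HFD gave 0.08 in fed and 0.01 in fasted mice (95% confidence intervals -0.59 to 0.74 and -0.66 to 0.68). None was called.

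Klf9 (ENSMUSG00000033863, chromosome 19, 23141226 to 23168134, plus strand) encodes a zinc finger transcription factor that the receptor induces directly. CD fed livers held 95.1, 124, 107 and 107 CPM and CD fast livers 77.1, 140.2, 139.5 and 120.2 CPM. HFD fed livers held 152, 112, 126 and 117 CPM and HFD fast livers 114, 90.7, 114 and 112 CPM. The groups overlapped, the 4 contrasts lay between -0.24 and 0.23, and their 95% confidence intervals reached no further than -0.57 (fasting in HFD) and 0.56 (HFD in fed mice). None was called. Among the 14 tested relatives of the members, Klf10 fell with fasting in CD, from 50.8 ± 10.4 to 16.0 ± 9.65 CPM (SD, n = 4), by -1.66 (SE 0.31, adjusted p = 0.00146). Klf3 rose in the same contrast by 0.50 (SE 0.17, adjusted p = 0.044), and Tsc22d2 fell by -0.28 (SE 0.10, adjusted p = 0.0431). The call of Klf10 was kept by all 16 fits with a library left out, and those of Klf3 and Tsc22d2 by 6 each. Without CD fast library 4 the change of Klf3 was 0.32 (adjusted p = 0.163). Klf15, a glucocorticoid target that drives amino acid breakdown, is described with the other targets. Klf13, the nearest relative of Klf9, had group means of 56.6 to 80.4 CPM and was not called.

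Sgk1 (ENSMUSG00000019970, chromosome 10, 21882184 to 21999903, plus strand) encodes a serum and glucocorticoid regulated kinase that acts on ion channels and on FOXO factors. It was 16.6, 13.5, 10.2 and 15.1 CPM in CD fed livers and 19.9, 17.7, 16.7 and 30.9 CPM in CD fast livers, just without overlap. It was 14.9, 18.2, 17.6 and 19.8 CPM in HFD fed and 18.2, 11.6, 17.2 and 15.5 CPM in HFD fast livers, which overlapped. Fasting in CD raised it 1.54-fold, by 0.62 (SE 0.19, adjusted p = 0.0293), while fasting in HFD gave -0.17 (SE 0.19, adjusted p = 0.617), and the interaction was -0.79 (SE 0.28, adjusted p = 0.125) and not called. The HFD gave 0.35 in fed (SE 0.19, adjusted p = 0.308) and -0.45 in fasted mice (SE 0.19, adjusted p = 0.159). The rise rests in part on CD fast library 4, without which it was 0.38 (adjusted p = 0.121), and the call was also lost without CD fed library 2 (adjusted p = 0.0641) or 3 (0.0846) and in a fit of only the groups compared (0.0648). Of the relatives Sgk2 and Sgk3, neither was called in any contrast.

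The receptor binds a palindrome of 2 mirrored sites, and Sgk1 is shown because one of its start sites holds a complete one. The windows searched were the 250 bases before each RefSeq start site (GRCm38.p6), available for 7 of the 8 genes in 14 windows, with the letters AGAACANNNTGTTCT for the full palindrome, GNACANNNTGTNC for its core (which the full palindrome contains) and TGTTCT for a single arm, on both strands. The full palindrome lay in 3 of 32851 windows of all genes (0.00913%), the core in 127 (0.387%) and the single arm in 16.1%. Sgk1 has 6 windows, and the one at chr10:21993640-21993889 (plus strand) holds the palindrome 189 to 175 bases before the start site, given in capitals:
Sgk1: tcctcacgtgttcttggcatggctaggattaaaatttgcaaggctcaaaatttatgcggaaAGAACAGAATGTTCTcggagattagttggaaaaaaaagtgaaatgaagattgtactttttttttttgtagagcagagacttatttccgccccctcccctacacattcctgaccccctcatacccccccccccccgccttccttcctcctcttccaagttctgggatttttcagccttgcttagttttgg
This is a match of letters in 1 window and not a bound site, and gene counts do not show which start site was used.

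Mt1 (ENSMUSG00000031765, chromosome 8, 94179082 to 94180327, plus strand) and Mt2 (ENSMUSG00000031762, chromosome 8, 94172664 to 94173568, plus strand) encode metallothioneins, small cysteine-rich proteins that bind zinc and copper. They lie side by side and are induced by glucocorticoids, by metals through the factor MTF1, and by inflammatory cytokines. For Mt1, CD fed livers held 5.74, 5.86, 2.99 and 14.1 CPM and CD fast livers 84.7, 82.9, 39.2 and 150.3 CPM. Every CD fast library was above every CD fed library. HFD fed livers held 9.85, 6.83, 10.8 and 100.05 CPM and HFD fast livers 26.4, 35.8, 18.1 and 95.6 CPM, where the groups overlapped through library 4 of HFD fed. For Mt2, CD fed livers held 2.52, 2.26, 1.33 and 6.73 CPM and CD fast livers 63.8, 34.0, 19.3 and 97.9 CPM, and HFD fed livers held 4.55, 1.99, 4.23 and 55.7 CPM and HFD fast livers 12, 17.5, 9.71 and 58.6 CPM. Fasting in CD raised Mt1 12.4-fold, by 3.64 (SE 0.86, adjusted p = 0.00677), and Mt2 16.7-fold, by 4.06 (SE 1.01, adjusted p = 0.00911), and both calls held in all 16 fits that left out 1 library. Among the 8 genes these were the widest changes in the 4 contrasts between groups.

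In HFD mice the fasting change was 0.46 for Mt1 (SE 0.77, adjusted p = 0.746) and 0.55 for Mt2 (SE 0.89, adjusted p = 0.735), and each value turned on single libraries. Without HFD fed library 4 they were 2.26 (adjusted p = 0.0328) and 2.77 (adjusted p = 0.0326) and were called, and without HFD fast library 4 they were -0.26 and -0.35. The HFD in fed mice gave 2.15 for Mt1 (SE 0.82, adjusted p = 0.124) and 2.37 for Mt2 (SE 0.96, adjusted p = 0.148), and without HFD fed library 4 these were 0.35 and 0.16. The HFD in fasted mice gave -1.02 for Mt1 (SE 0.78, adjusted p = 0.433) and -1.14 for Mt2 (SE 0.89, adjusted p = 0.448). Library 4 had the most Mt1 and the most Mt2 in each of the 4 groups. Over all tested genes, HFD fed library 4 also differed more from the others of its group (chi-square of counts per gene 142 to 157) than these did from one another (35.8 to 67.0). Pairs of libraries within the other groups reached 192. Without all 4 libraries of that number, a fit added after these values had been seen, fasting gave 3.82 for Mt1 and 4.26 for Mt2 in CD (adjusted p = 0.000167 and 0.0003) and 1.55 and 1.86 in HFD (adjusted p = 0.029 and 0.0344), all called. In that fit the interaction was -2.28 for Mt1 and -2.40 for Mt2 (adjusted p = 0.0657 and 0.0962), and in the fit of all 16 libraries -3.17 and -3.51 (adjusted p = 0.132 and 0.15), not called in either. A fit with the replicate number as a block called both (-2.83 and -2.99, adjusted p = 0.0253 and 0.0374). It also called Mt1 for HFD in fed mice (1.62, adjusted p = 0.0281).

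Mt1 and Mt2 moved together from library to library. After subtraction of each group's mean, log2 CPM of the 2 genes correlated over 16 libraries with Pearson's r = 0.985 and Spearman's rho = 0.975, and the permutation p within groups was 1e-05, the smallest that 100000 permutations give (0.00028 adjusted over the 28 pairs of members). For rho the permutation p was 3e-05 (adjusted 0.00084). Without the 2 libraries farthest from the median r was 0.964. Of the other 27 pairs none passed, the nearest being Nr3c1 and Hsd11b1 (r = 0.583, rho = 0.596, permutation p = 0.0199 and 0.038, adjusted 0.279 and 0.297). The ratio of Mt1 to Mt2 in CPM nevertheless ranged from 1.33 to 3.43, so the reads of one gene were not a fixed share of the other. On the annotation 73.5% of the exon bases of Mt2 are shared with the antisense gene Gm45774, and the level of Mt2 is uncertain to that extent. Reads were aligned as stranded according to the study's methods, but whether counting used strand is not given in the sources used here.

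**Figure D2:**
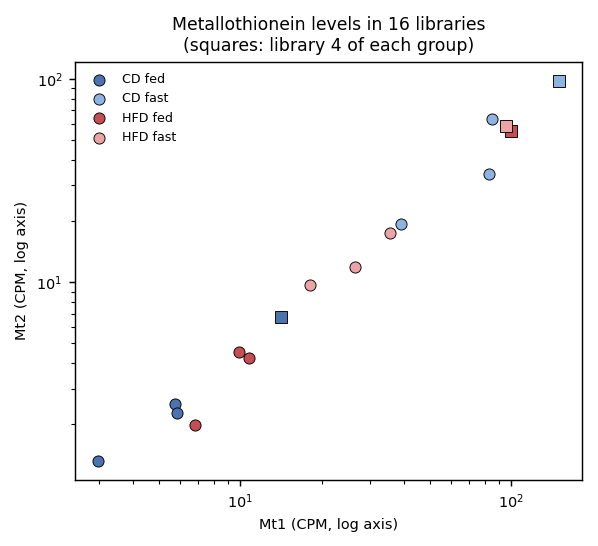
Mt1 against Mt2 in the 16 libraries, both in CPM on logarithmic axes. Colours are the 4 groups and squares mark library 4 of each group. The points lie near 1 line, CD fed livers sit at the lower left (Mt1 2.99 to 14.1 CPM), and the square of each group is its highest point.

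The upstream windows of the 2 genes are shown because both were called and they differ in their matches. Capitals mark the receptor core (GNACANNNTGTNC) and the core of the metal response element bound by MTF1 (TGCACNC or TGCGCNC), searched on both strands. The Mt1 window lies at chr8:94178839-94179088 and the Mt2 window at chr8:94172368-94172617 (GRCm38.p6, plus strand):
Mt1: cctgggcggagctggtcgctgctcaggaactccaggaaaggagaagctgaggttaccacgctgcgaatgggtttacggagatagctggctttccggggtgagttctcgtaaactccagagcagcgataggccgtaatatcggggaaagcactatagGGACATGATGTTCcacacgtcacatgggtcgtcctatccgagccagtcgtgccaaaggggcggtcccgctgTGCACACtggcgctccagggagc
Mt2: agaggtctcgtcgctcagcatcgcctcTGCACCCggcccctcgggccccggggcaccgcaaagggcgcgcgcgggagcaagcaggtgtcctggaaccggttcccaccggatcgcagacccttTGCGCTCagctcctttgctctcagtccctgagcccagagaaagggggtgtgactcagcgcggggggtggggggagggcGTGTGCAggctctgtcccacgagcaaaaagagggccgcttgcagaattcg
Mt1 holds the receptor core 94 to 82 bases before the start site and 1 metal response core at 23 to 17 bases. Mt2 holds 3 metal response cores, starting 223, 128 and 50 bases before the start site, and no receptor core in this window. A metal response core occurred in 21.4% of the windows searched and at least 3 in 1.26%. Such matches describe the letters only.

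Genes of metal handling were read beside the metallothioneins. Of 11 tested, fasting in CD raised 1 and lowered 4 (13.7% and 11.5% of all genes). Fasting in HFD lowered 1 (4.07%) and the HFD in fed mice lowered 1 (4.22%). The HFD in fasted mice changed 0 by edgeR (7.70%), with 1 at an unadjusted p under 0.05 (25.9% of all genes). Slc39a10, a zinc importer, fell with fasting in CD by -1.15 (SE 0.21, adjusted p = 0.00142), Slc30a10, a manganese exporter, by -1.40 (SE 0.32, adjusted p = 0.00495) and Slc30a7, a zinc transporter of the Golgi, by -0.34 (SE 0.07, adjusted p = 0.00317). The zinc importer Slc39a1 rose by 0.26 (SE 0.06, adjusted p = 0.00475). Slc39a8, a zinc and manganese importer, fell with fasting in HFD by -0.33 (SE 0.10, adjusted p = 0.0499), a call kept by 5 of the 16 fits with a library left out. It also fell with fasting in CD, by -0.30 (adjusted p = 0.0377), a call kept by 11 of these fits. Slc39a4, another importer, fell with HFD in fed mice by -1.18 (SE 0.27, adjusted p = 0.0162). Mtf1 itself was 18.4 to 22.9 CPM in group means, and the zinc exporter Slc30a1, an MTF1 target, was 27.7 to 43.9 CPM over all 16 libraries; neither was called.

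Acute phase genes respond to cytokines together with glucocorticoids. Of 17 tested, 5 rose and 2 fell with fasting in CD (13.7% and 11.5% of all genes), the contrast in which Mt1 and Mt2 were called. In the contrasts in which the pair was not called, 9 rose and 0 fell with fasting in HFD (4.78% and 4.07%), 2 rose and 2 fell with HFD in fed mice (3.28% and 4.22%) and 4 rose and 0 fell with HFD in fasted mice (3.05% and 4.65%). Over the fits with a library left out the changed genes numbered 5 to 8, 3 to 12, 2 to 4 and 2 to 5 in this order. For fasting in HFD they were 3 without HFD fed library 2 and 5 without HFD fed library 1 or 3 or HFD fast library 3, for HFD in fed mice 2 without CD fed library 2, and for HFD in fasted mice 2 without CD fast library 3 or HFD fast library 3. Of Lcn2, an iron-siderophore binding protein, CD fed livers held 2.11, 1.39, 1.18 and 2.29 CPM and CD fast livers 25.7, 38.3, 3.52 and 4.24 CPM. HFD fed livers held 3.81, 1.82, 8.49 and 14.9 CPM and HFD fast livers 33.1, 44.5, 77.9 and 60.9 CPM. Library 4 had the most Lcn2, as it had the most Mt1, in CD fed and in HFD fed livers, while library 2 of CD fast and library 3 of HFD fast had the most Lcn2. Lbp (lipopolysaccharide binding protein), Il1rn (the interleukin 1 receptor antagonist) and Hp (haptoglobin) rose with fasting in CD by 0.99, 2.41 and 0.98 (adjusted p from 3.93e-05 to 0.000902). Orm1 and Orm2 (orosomucoids), Hp and Saa2 rose with fasting in HFD by 1.29, 3.65, 0.76 and 4.62 (adjusted p from 0.00468 to 0.0204). With HFD in fed mice Lbp and Il1rn rose by 0.77 and 1.74, and Orm1 and Apcs (serum amyloid P) fell by -1.29 and -1.02 (adjusted p from 0.0013 to 0.0195). With HFD in fasted mice Steap4, Saa3, Itih4 and Orm2 rose by 1.29, 1.75, 0.77 and 2.59 (adjusted p from 0.01 to 0.0224). Lcn2 rose with fasting by 3.35 in CD (SE 0.76, adjusted p = 0.00494) and 2.90 in HFD (SE 0.71, adjusted p = 0.0211). Saa1, a serum amyloid gene, was 576, 141, 19.2 and 25.9 CPM in CD fast and 633, 129, 938 and 156 CPM in HFD fast livers, against 11.7 to 50.6 CPM in the 8 fed livers. The part of an acute phase response in the metallothionein values was not tested.

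**Figure D3:**
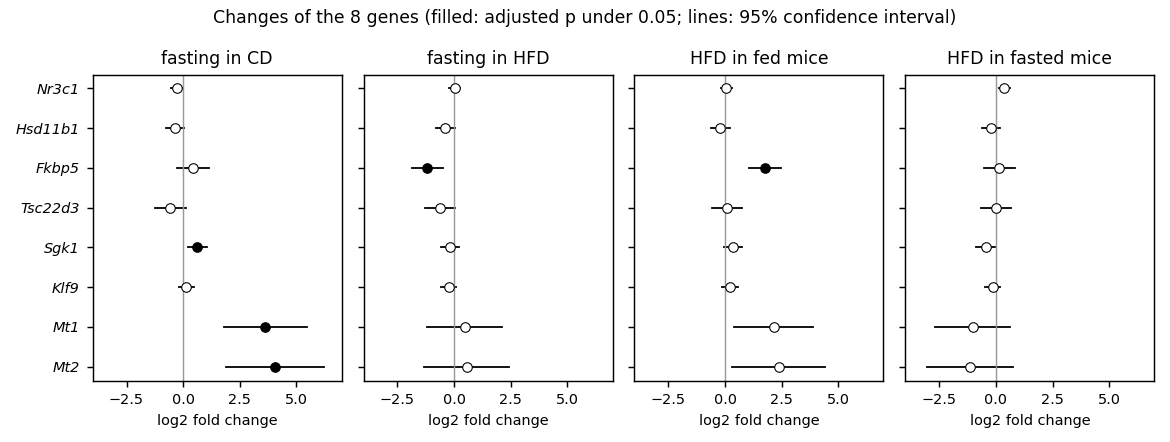
Log2 fold changes of the 8 genes in the 4 contrasts between 2 groups. Points are the fitted changes, filled where the adjusted p was under 0.05, and lines are 95% confidence intervals. The filled points are Sgk1, Mt1 and Mt2 for fasting in CD and Fkbp5 for fasting in HFD and for HFD in fed mice.

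A list of 28 other glucocorticoid targets was read beside the members. It was chosen from general knowledge of the pathway, but with earlier results of these data known. With fasting in CD, 4 of the 28 rose and 3 fell (13.7% and 11.5% of all genes). With fasting in HFD, 1 rose and 7 fell (4.78% and 4.07% of all genes). The HFD raised 2 in fed mice and lowered 0 (3.28% and 4.22% of all genes), and in fasted mice it raised 0 and lowered 6 (3.05% and 4.65% of all genes). The median change of the 28 was 0.33 for fasting in CD, -0.53 for fasting in HFD, 0.14 for HFD in fed mice and -0.39 for HFD in fasted mice. The contrasts with most falls both include the HFD fast livers, and the counts are given without a test of the list.

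Of the 7 that fell with fasting in HFD, Pck1 and G6pc encode enzymes of gluconeogenesis and Tat and Sds enzymes of amino acid breakdown. Pck1, the cytosolic PEP carboxykinase of gluconeogenesis, was 3369, 7106, 5316 and 6915 CPM in CD fast and 2459, 1848, 1503 and 2300.3 CPM in HFD fast livers, without overlap. It rose with fasting in CD by 0.75 (SE 0.25, adjusted p = 0.0416), fell with fasting in HFD by -0.86 (SE 0.25, adjusted p = 0.0467) and fell with HFD in fasted mice by -1.49 (SE 0.26, adjusted p = 0.00608). G6pc, which releases free glucose, fell with fasting in HFD by -1.49 (SE 0.38, adjusted p = 0.0259) and with HFD in fasted mice by -1.71 (SE 0.38, adjusted p = 0.0156). Tat, the tyrosine aminotransferase long used as the model hepatic target of the receptor, was 1265 to 3749.6 CPM in CD fast and 433 to 932 CPM in HFD fast livers. It fell by -1.35 with fasting in HFD (SE 0.39, adjusted p = 0.0437) and by -1.92 with HFD in fasted mice (SE 0.40, adjusted p = 0.0123). Sds, serine dehydratase, was 224 to 553 CPM in HFD fed and 67.4 to 222 CPM in HFD fast livers, and fell with fasting in HFD by -1.48 (SE 0.34, adjusted p = 0.0158). Of the falls with fasting in HFD, those of Pck1 and Tat were kept by 6 of the 16 fits with a library left out (adjusted p up to 0.131 without HFD fast library 3 and 0.15 without HFD fed library 3), that of G6pc by 12 (up to 0.0652) and that of Sds by all 16.

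The remaining called targets had mixed roles. Lpin1, a lipid phosphatase and coactivator, fell with fasting in both diets, by -2.28 in CD (SE 0.49, adjusted p = 0.00365) and -3.15 in HFD (SE 0.51, adjusted p = 0.00223). Dusp1, a MAP kinase phosphatase, and Zbtb16, a zinc finger repressor, fell with fasting in CD (-1.58, SE 0.38, and -1.93, SE 0.58), and Gadd45b, a stress response gene, and Agt, the precursor of angiotensin, rose (1.45, SE 0.43, and 0.41, SE 0.12; adjusted p for these 4 genes from 0.00768 to 0.0236). Of the 16 fits with a library left out, 16 kept the call of Dusp1, 14 that of Zbtb16, 11 that of Gadd45b and 14 that of Agt. Klf15 fell with fasting in HFD by -0.68 (SE 0.16, adjusted p = 0.02) and with HFD in fasted mice by -0.72 (SE 0.16, adjusted p = 0.0172). Igfbp1 and Irs2, both restrained by insulin, fell with HFD in fasted mice by -3.48 (SE 0.85, adjusted p = 0.0236) and by -1.57 (SE 0.43, adjusted p = 0.038). Igfbp1 in CD fast livers was carried by library 2 (616 CPM, others 38 to 117), and without that library its fall was -1.83 and not called (adjusted p = 0.0903). The fall of Irs2 was -1.11 and not called without the same library (adjusted p = 0.12), and its call was kept by 10 of the 16 fits with a library left out. Tdo2, tryptophan dioxygenase, rose with HFD in fed mice by 0.98 (SE 0.17, adjusted p = 0.00263), from 1158 to 1339 CPM in CD fed to 1872 to 3261 CPM in HFD fed livers.

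Of these 28 targets 3 had a called interaction, each negative, a lower response to fasting in HFD than in CD: Pck1 (-1.60, SE 0.36, adjusted p = 0.0296), Sds (-1.96, SE 0.48, adjusted p = 0.0407) and Tdo2 (-0.94, SE 0.23, adjusted p = 0.0435), beside 1.36% of all genes called negative. At an unadjusted p under 0.05 there were 15, beside 20.2% of all genes. Without the 4 libraries numbered 4 the count of called interactions was 0, and over the fits with a library left out it was 0 to 3.

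**Figure D4:**
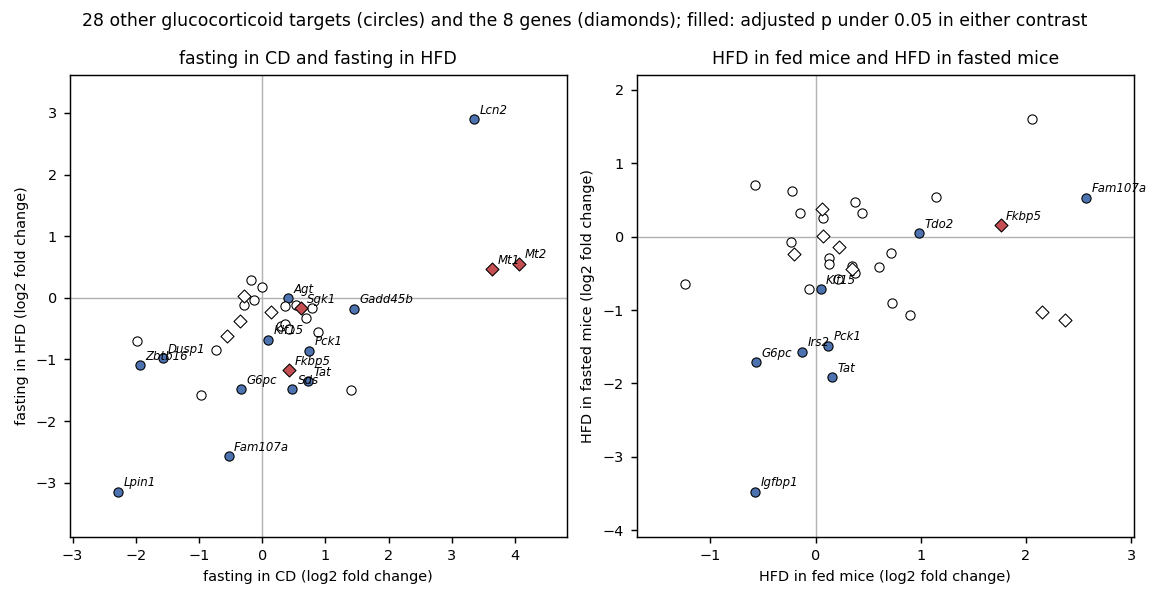
Log2 fold changes of the 28 other glucocorticoid targets (circles) and the 8 genes (diamonds). The left panel sets fasting in CD against fasting in HFD and the right panel HFD in fed against HFD in fasted mice, with filled and named points at an adjusted p under 0.05 in either contrast. Fkbp5 and Fam107a lie low on the left and far right on the right panel, and Pck1, Tat and G6pc lie below 0 in HFD fast livers.

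Cofactors through which the receptor acts on transcription differed by small amounts where called. Of 12 tested, fasting in CD changed 4, fasting in HFD 3, the HFD in fed mice 2 and the HFD in fasted mice 0 by edgeR. The shares of all genes were 25.2%, 8.86%, 7.50% and 7.70%. In the last contrast 4 were at an unadjusted p under 0.05, beside 25.9% of all genes. With a library left out the counts of called cofactors were 1 to 5, 1 to 4, 0 to 2 and 0 to 1, and scaling by the total count gave 6 for HFD in fasted mice. Carm1, an arginine methyltransferase, rose with fasting by 0.57 in CD (SE 0.09, adjusted p = 0.000298) and 0.32 in HFD (SE 0.09, adjusted p = 0.0353), and Smarca4, the BRG1 remodeller, rose by 0.27 and 0.46 (adjusted p = 0.0495 and 0.0104), the first kept by 4 of the 16 fits with a library left out. Crtc2, a CREB coactivator, rose by 0.33 and Ncoa3, a p160 coactivator, fell by -0.32 with fasting in CD (adjusted p = 0.0225 and 0.0302). Med1, a Mediator subunit, fell by -0.26 with fasting in HFD and rose by 0.26 with HFD in fed mice (adjusted p = 0.0349 and 0.0355).

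Glucocorticoid secretion follows the clock, and the labels give no hour of collection. Of 18 clock genes tested, fasting in CD changed 2 (25.2% of all genes), fasting in HFD 1 (8.86%), and the HFD 1 in fed (7.50%) and 1 in fasted mice (7.70%). At an unadjusted p under 0.05 fasting differed in 7 of them in CD and 3 in HFD, and the HFD in 9 in fed and 4 in fasted mice, beside 37.6%, 25.6%, 22.9% and 25.9% of all genes. The counts moved widely with single libraries: over the fits with a library left out they were 1 to 9 for fasting in CD and 0 to 6 for HFD in fed mice, the highest of both without CD fast library 1, and 0 to 2 in the other contrasts between groups. Of Arntl, which encodes BMAL1, CD fed livers held 24.2, 11.6, 7.04 and 11.7 CPM and CD fast livers 11.4, 4.35, 3.96 and 2.50 CPM, and the 8 HFD livers 2.39 to 5.36 CPM. It fell with HFD in fed mice by -1.82 (SE 0.42, adjusted p = 0.0185), the contrast in which Fkbp5 rose, and with fasting in CD by -1.30 (SE 0.42, adjusted p = 0.033). Without CD fed library 1, the highest of its group, Arntl was not called in either contrast (-1.38, adjusted p = 0.0568, and -0.86, adjusted p = 0.137), and the calls were kept by 13 and 12 of the 16 fits with a library left out. Bhlhe40, a clock repressor, fell with fasting in CD by -1.35 (SE 0.28, adjusted p = 0.00314), Per2 rose with fasting in HFD by 1.07 (SE 0.30, adjusted p = 0.0371) and Nfil3 fell with HFD in fasted mice by -1.14 (SE 0.28, adjusted p = 0.0219). Of the 16 fits with a library left out, all 16 kept the call of Bhlhe40, 9 that of Per2 and 13 that of Nfil3. Per1, which is both a clock gene and a receptor target, was not called. Library 1 of CD fed and library 1 of CD fast, with the most Arntl of their groups, also had the least Fkbp5 (45.3 and 32.7 CPM). The HFD groups did not share this. In HFD fast livers library 2 had the most Arntl (3.49 CPM) and the most Fkbp5 (149.9 CPM). In HFD fed livers library 1 had the most Arntl (5.36 CPM) and 211 CPM of Fkbp5, while library 2 had the least Fkbp5 (173 CPM). The part of collection time in the values of Fkbp5 was not tested.

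Per kilobase of annotated exon, the mean level over all 16 libraries was highest for Hsd11b1 (92.3 CPM per kb), above 96.8% of the tested genes with a length. Mt2 (41.7), Mt1 (34.6), Klf9 (24.0), Tsc22d3 (19.1), Fkbp5 (12.6), Nr3c1 (9.37) and Sgk1 (3.49 CPM per kb, above 58.6% of genes) followed. The places of Mt1 and Mt2 are averages over groups that differed widely. The genes whose log2 CPM ran closest to each member over the 16 libraries, as a description with groups included, were Pcdhga5 (r = 0.862) and Gpr155 (0.854) for Nr3c1, Snf8 (0.946) and the unnamed gene ENSMUSG00000066944 (0.943) for Hsd11b1, and Nupl2 (0.916) and Slc19a1 (0.910) for Fkbp5. For Tsc22d3 they were Zfp592 (0.881) and Purg (0.840), for Sgk1 Ifrd1 (0.858) and Lrrfip1 (0.814), for Klf9 Map3k5 (0.835) and Gm27326 (0.819), and for Mt1 and Mt2 each other (0.993) and Gm12840 (0.904 and 0.891). No member other than the metallothionein pair had another member among its 2 nearest genes.

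The markers bore out the label of liver. The 6 hepatocyte genes summed to 105043 to 138559 CPM in CD fed, 85866 to 110771 in CD fast, 107907 to 137468 in HFD fed and 69979 to 102396 CPM in HFD fast livers. The last of these groups lay under HFD fed without overlap. In that contrast 0 of the 6 genes were called by edgeR (8.86% of all genes) and 3 were at an unadjusted p under 0.05 (25.6%). Most of the sum was Alb, at 85512 to 112653 CPM in HFD fed and 52371 to 83050 CPM in HFD fast livers, without overlap. Apoa1, Ttr, Serpina1a, Cps1 and Cyp3a11 each overlapped between these groups, and the changes of the 6 genes ran from -0.66 to 0.40. Fkbp5, Pck1, Tat, Sds and G6pc fell in that contrast, and the part of the difference in the marker sum in their values was not tested. The 6 sinusoidal endothelial markers summed to 268 to 296 CPM in CD fed and 202 to 242 CPM in CD fast livers, without overlap, with 3 called lower. The 6 Kupffer cell markers summed to 214 to 424 and 147 to 238 CPM, with 2 called lower (11.5% of all genes). CD fast is also the group with the lowest Nr3c1, a gene that those cells express too, and their part in that difference was not tested. With HFD in fasted mice, where Nr3c1 was close to the threshold, 2 of the 6 endothelial markers were called higher (Fcgr2b and Stab2, by 0.45 and 0.43), with sums of 239 to 315 CPM in HFD fast livers that overlapped those of CD fast livers. Of 6 stellate cell markers 2 were called higher there (Reln and Hand2, by 0.75 and 0.56), beside 3.05% of all genes. Their sums were 135 to 221 CPM in CD fast and 232 to 314 CPM in HFD fast livers, without overlap. Of the Kupffer cell markers 0 were called by edgeR, with 2 at an unadjusted p under 0.05 (25.9% of all genes). The part of these cell types in the difference of Nr3c1 was not tested. In HFD fed livers, where Fkbp5 was highest, the endothelial, Kupffer cell and stellate cell sums were 244 to 271, 228 to 333 and 228 to 327 CPM. There the HFD called 0 of the endothelial and Kupffer cell genes by edgeR (0 at an unadjusted p under 0.05) and 1 of the 6 stellate cell genes, Hand2, which rose by 0.69. Of the 4 adipocyte genes, Cidec alone passed the filter and rose with fasting in both diets, while Adipoq was at most 0.976 CPM, Plin1 0.394 and Lep 0.781. Neutrophil and lymphocyte lists summed to at most 7.33 and 6.12 CPM.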

How the data were processed

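Raw counts per Ensembl gene in 16 liver libraries were analysed as deposited. To make the counts, the authors enriched polyadenylated RNA, sequenced paired ends on an Illumina HiSeq and, per the submitters' processing notes, demultiplexed with CASAVA 1.8.4, aligned with TopHat2 2.0.11 to GRCm38 and counted with featureCounts. The study's methods give first-strand alignment and an annotation from Illumina iGenomes; its release and the strand setting of counting are not given in the sources used here. Symbols were matched for 45143 of 46078 genes, and positions are from GENCODE M21 (GRCm38).

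Groups came from the sample labels. The 15075 genes passing filterByExpr were fitted in edgeR 4.0.16 (R 4.3.3) with 1 coefficient per group (12 residual degrees of freedom, spread between libraries 19.2% as edgeR's common coefficient of variation), and 5 quasi-likelihood tests were made (4 between groups and the interaction). On simulated counts for fasting in CD (14920 genes, 200 changed), edgeR recovered 24% of genes changed 1.5-fold and 88%, 96% and 100% of those changed 2-, 3- and 4-fold, and 3.145% of its calls were false, against 13.7% of those of DESeq2. The simulation gave every gene the same spread and held no outlying library. In the data the coefficient of variation was, for example, 5.54% for Nr3c1 in CD fed and 157% for Mt2 in HFD fed livers. The simulated rates therefore need not hold for single members. log2 CPM used a prior count of 2. Alternatives were DESeq2 1.42.0, limma-voom (limma 3.58.1), 3 other scalings, a looser and a stricter filter, fits to the compared groups alone, a threshold of 0.01, a block for the replicate number, and leaving out each library.

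The members and gene lists were chosen with earlier results of these data known. All members are named with their level in every library. From each list the called genes were named, at most 4 per contrast by smallest p (8 for the other targets), with relatives of members, genes overlapping a member and the 2 genes most like each member. H6pd, Mtf1, Slc30a1, Per1 and Saa1 were added after their values were seen, as was the value of Slc39a8 for fasting in CD. Promoter windows are from RefSeq (GRCm38.p6). One called gene of the cofactor list is not reported here.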

Additional observations from a re-analysis of the deposited data

Results flagged for a closer look

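In 32 sets of 4 libraries (8 genes by 4 groups) a library far from the other three was looked for, and 4 were found, where chance gives about 1 in 20. HFD fed library 4 stood apart with 100.05 CPM of Mt1 and 55.7 CPM of Mt2, and HFD fast library 4 with 58.6 CPM of Mt2. HFD fast library 2 was low in Klf9 (90.7 CPM). The Mt1 and Mt2 values of HFD fed library 4 are 1 event, since the pair moves together.

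The response to fasting differed between diets by the interaction test of edgeR (adjusted p in brackets) for 5 genes of the lists other than the cell type markers. It was lower in HFD than in CD for Pck1 (-1.60, 0.0296), Sds (-1.96, 0.0407), Tdo2 (-0.94, 0.0435) and Lbp, a lipopolysaccharide binding protein (-0.96, 0.0112), and higher for Orm1, an acute phase glycoprotein (1.47, 0.0453).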

How the results depend on the processing

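Of 40 member results (8 genes, 5 contrasts), 21 kept direction and side of the threshold in every alternative run. Over all 1072 alternative values 14 lost a call, 21 gained one and 31 changed sign, the latter mostly near 0. The count of changed members for fasting in HFD was 0 with limma-voom, 0 at the stricter threshold of 0.01 and 2 without the 4 libraries numbered 4, a setting chosen after seeing the data. For HFD in fasted mice it was 1 with DESeq2, total count scaling, upper quartile scaling and the stricter count filter (Nr3c1 in each), and for the interaction 1 with DESeq2. Of the 28 other targets, fasting in CD changed 3 at 0.01 and 3 without the libraries numbered 4, fasting in HFD 2 and 5, HFD in fasted mice 1 and 3, and the interaction 0 and 0. HFD in fed mice changed 5 of them with DESeq2 and 1 with the stricter filter, HFD in fasted mice 1 in a fit of only the groups compared, and the interaction 5 with DESeq2.

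With each library left out in turn, changed members numbered 2 to 4 (fasting in CD), 0 to 3 (fasting in HFD), 0 to 1 (HFD in fasted mice) and 0 to 1 (interaction), and changed targets 4 to 9, 3 to 9, 2 to 3 (HFD in fed mice), 3 to 7 and 0 to 3. Signs changed within these ranges: for fasting in HFD, Nr3c1 -0.033 to 0.14, Mt1 -0.26 to 2.26 and Mt2 -0.35 to 2.77; for HFD in fed mice, Nr3c1 -0.057 to 0.12 and Tsc22d3 -0.070 to 0.25; for HFD in fasted mice, Fkbp5 -0.12 to 0.29 and Tsc22d3 -0.18 to 0.30; for the interaction, Hsd11b1 -0.26 to 0.12 and Tsc22d3 -0.26 to 0.23. Total count scaling turned Klf9 for HFD in fasted mice (0.019) and the interactions of Hsd11b1 (0.047) and Tsc22d3 (0.010), and leaving out the libraries numbered 4 that of Hsd11b1 (0.019). Of 85 calls of genes outside the members, 34 held in all 16 fits with a library left out. The interactions of Tdo2 and Sds were kept by 3 each, that of Orm1 by 4, that of Lbp by all 16 and that of Pck1 by 9, as was its rise with fasting in CD. The cause was not tested.

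The labels do not say that the replicate numbers pair the libraries. Same-numbered libraries correlated at -0.24 to 0.66 over 24 pairs (8 over 0.1), and 5 of 16 were closest to their own number. Library 4 had the most Mt1 and Mt2 in every group. With the number as a replicate block, 2 members changed with HFD in fed mice (Mt1 besides Fkbp5, 1.62, adjusted p = 0.0281) and 3 had an interaction (Fkbp5 -1.60, Mt1 -2.83 and Mt2 -2.99, adjusted p from 0.0253 to 0.0472). Effects of depth and of the number of libraries were not tested, and the lowest count of a member was 72.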
